A study of Mus musculus with 14 samples.

Results

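The genes described here are the 8 core genes of MHC class II antigen presentation in 14 mouse tumours of small cell lung cancer, each sequenced as 1 RNA library. They were taken by symbol from the 23284 genes of the count files: the class II chains H2-Aa, H2-Ab1 and H2-Eb1, the invariant chain gene Cd74, the coactivator Ciita, and the H2-DM chains H2-DMa, H2-DMb1 and H2-DMb2. All 8 were found, and the rule names them by symbol without using a measured value. The tumours come from a genetically engineered mouse model, and both groups carry deletions of Rb1 and Trp53. In 7 tumours (genotype Rb1/Trp53, called RP) only these genes were deleted, and in 7 (genotype Rb1/Trp53/Crebbp, called RPC) Crebbp, a histone acetyltransferase, was deleted as well. The sources used here do not give strain, age, sex or the Cre driver. Tumours are numbered in the labels, which do not tie each one to a separate animal. The p-values therefore speak only for the variation among these libraries, part of which may be technical.

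Class II molecules are pairs of an alpha and a beta chain that show peptides from engulfed proteins to CD4+ T cells. Dendritic cells, macrophages and B cells carry them, and interferon gamma can induce them in other cells. Cd74 protein escorts the new pair, proteases such as cathepsin S (encoded by Ctss) degrade the escort, and H2-DM helps to load the peptide. Ciita has no DNA-binding role of its own: it is recruited by RFX, CREB and NF-Y proteins bound next to each other at the X, X2 and Y boxes of class II promoters, and it in turn recruits coactivators that include Crebbp. This link gives the comparison of the genotypes its interest for these genes.

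The promoter boxes are shown because they are where the factors that recruit Ciita are known to bind. Windows of 4 members, from RefSeq on build GRCm38.p6, are printed 5′ to 3′ on the strand of the gene, with an X box core (AACNGATG) or, in H2-Aa, the CRE letters (TGACGTCA) as the first run of capitals and the Y box core (GATTGG) as the second.
H2-Aa, chr17:34287855-34287912, minus strand: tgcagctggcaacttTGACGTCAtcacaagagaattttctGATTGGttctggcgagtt
H2-Eb1, chr17:34305763-34305824, plus strand: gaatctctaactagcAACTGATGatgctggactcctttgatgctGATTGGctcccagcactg
H2-DMb1, chr17:34153084-34153146, plus strand: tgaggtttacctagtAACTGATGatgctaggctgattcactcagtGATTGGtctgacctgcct
H2-DMb2, chr17:34145113-34145175, plus strand: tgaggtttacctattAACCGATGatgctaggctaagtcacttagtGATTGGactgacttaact

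The first run starts 25 bases before the second in H2-Aa, 29 in H2-Eb1 and 30 in H2-DMb1 and H2-DMb2, and the Y box core starts 49 to 91 bases before the transcript start. H2-Eb1 holds a second Y box core outside the stretch shown. Searched on both strands in all 32851 RefSeq promoter windows (250 bases before to 50 after a start), GATTGG was found in 16.1%, AACNGATG in 2.32% and TGACGTCA, which reads the same on both strands, in 1.79%. The motifs do not overlap each other in these windows. An X box core followed within 60 bases by a Y box core on the sense strand was found in 8 windows (0.0244%), of which 4 belong to class II genes: H2-DMb1, H2-DMb2, H2-Eb1 and H2-Eb2. The windows of H2-DMb1 and H2-DMb2 were identical at 54 of 63 bases. Of the 2 windows of H2-DMa, 1 held a Y box core and neither held an X box core or the CRE letters. A match is a description of the letters and not evidence of binding.

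Libraries held between 10060969 and 24052799 counts in genes, so that a count of 0 allows a level of up to 0.125 to 0.298 counts per 1000000 gene counts of the library (CPM), for counting error only. PCR reads without molecular identifiers are not independent molecules, so intervals given below cover counting error only. All 14 libraries had the neuroendocrine markers of this cancer, with a summed level of 10 genes (Chga, Syp and others) of 6329 to 11693 CPM in RP and 3264 to 5980 CPM in RPC tumours. RPC tumours 3, 5 and 6 stand apart: the summed level of 14 macrophage genes was 7.36, 9.40 and 8.71 CPM there, against at least 567 CPM in each other library. In each of the 3, 5 of these 14 genes were at 0 counts. In RPC tumours 3 and 6 genes of other non-tumour cell types were low too. The 7 listed endothelial genes summed to 6.96, 81.0 and 1.94 CPM in RPC tumours 3, 5 and 6, against at least 48.9 CPM elsewhere. The 7 listed fibroblast genes summed to 4.17, 120 and 6.07 CPM there, against at least 244 CPM elsewhere. Fold changes of the members and medians of the lists are given with and without these libraries. Crebbp itself ranged between 59.8 and 98.1 CPM in RP tumours, with RPC tumours at 54.8 to 68.3 CPM (edgeR adjusted p = 0.264), and a count over the whole gene does not check the deletion of some exons.

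Levels of the class II genes were highest for Cd74 when set per length. In RP tumours Cd74 was at 329 ± 156 CPM per kb of its longest coding transcript, H2-Aa at 167 ± 80.7, H2-Ab1 at 136 ± 62.2 and H2-Eb1 at 99.0 ± 48.3 (SD, n = 7). H2-DMb1 was at 9.27 ± 4.98, H2-DMa at 7.62 ± 3.92, H2-DMb2 at 2.24 ± 3.54 and Ciita at 1.57 ± 1.03 CPM per kb (SD, n = 7). The lowest of the first 4 genes, H2-Eb1, thus stood above the highest of the other 4, H2-DMb1, by more than the larger SD. Within the first set, Cd74 stood above H2-Aa by about 1 SD, and H2-Aa, H2-Ab1 and H2-Eb1 differed from their neighbours by less than the SD. In the second set the same held for H2-DMb1 and H2-DMa and for H2-DMb2 and Ciita. These SDs describe the spread between tumours, and the genes were measured in the same tumours. Across the 7 RP tumours Cd74 was at 2.13 to 2.57 of H2-Ab1 per length, H2-Aa at 1.03 to 1.35 and H2-Eb1 at 0.670 to 0.787. H2-DMb1 was at 1.09 to 1.30 of H2-DMa. The order of Cd74, H2-Aa, H2-Ab1 and H2-Eb1, and of H2-DMb1 and H2-DMa, was thus the same in every RP tumour.

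The antigen-presenting chains were lowest in RPC tumours 3, 5 and 6 and highest in RP tumour 7. H2-Aa, the alpha chain of the I-A molecule, was at 79.9 CPM in the lowest RP tumour, 158 at the median and 361 in the highest. In RPC tumours 1, 2, 4 and 7 it was at 81.2, 212, 45.6 and 105 CPM. In RPC tumours 3, 5 and 6 it had 2, 0 and 0 counts (0.199 CPM in tumour 3, exact Clopper-Pearson 95% interval 0.0241 to 0.718). The ranges of the genotypes overlapped, with 4 of 7 RPC tumours under the lowest RP tumour. H2-Ab1, its beta chain partner, ranged from 74.6 to 316 CPM in RP tumours (median 137), and from 32.0 to 184 CPM in RPC tumours 1, 2, 4 and 7. It had 1, 2 and 1 counts in RPC tumours 3, 5 and 6. H2-Eb1, the beta chain of the I-E molecule, ranged from 69.7 to 322 CPM in RP (median 134) and from 30.4 to 161 CPM in the same 4 RPC tumours. It had 0, 1 and 1 counts in the other three. H2-Ea-ps, the only symbol of an I-E alpha chain found in the files, had 1 count in RPC tumour 4 and 0 in the other 13 libraries.

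Cd74, the invariant chain that also has a role as a surface receptor, ranged from 185 to 888 CPM in RP tumours, with a median of 399. It was at 221, 585, 75.4 and 379 CPM in RPC tumours 1, 2, 4 and 7, and at 0.497, 0.155 and 0.0880 CPM (5, 3 and 1 counts) in RPC tumours 3, 5 and 6. RP tumour 7 was the highest and RP tumour 3 the lowest RP tumour for Cd74 and for each of the 3 presenting chains.

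**Figure D1:**
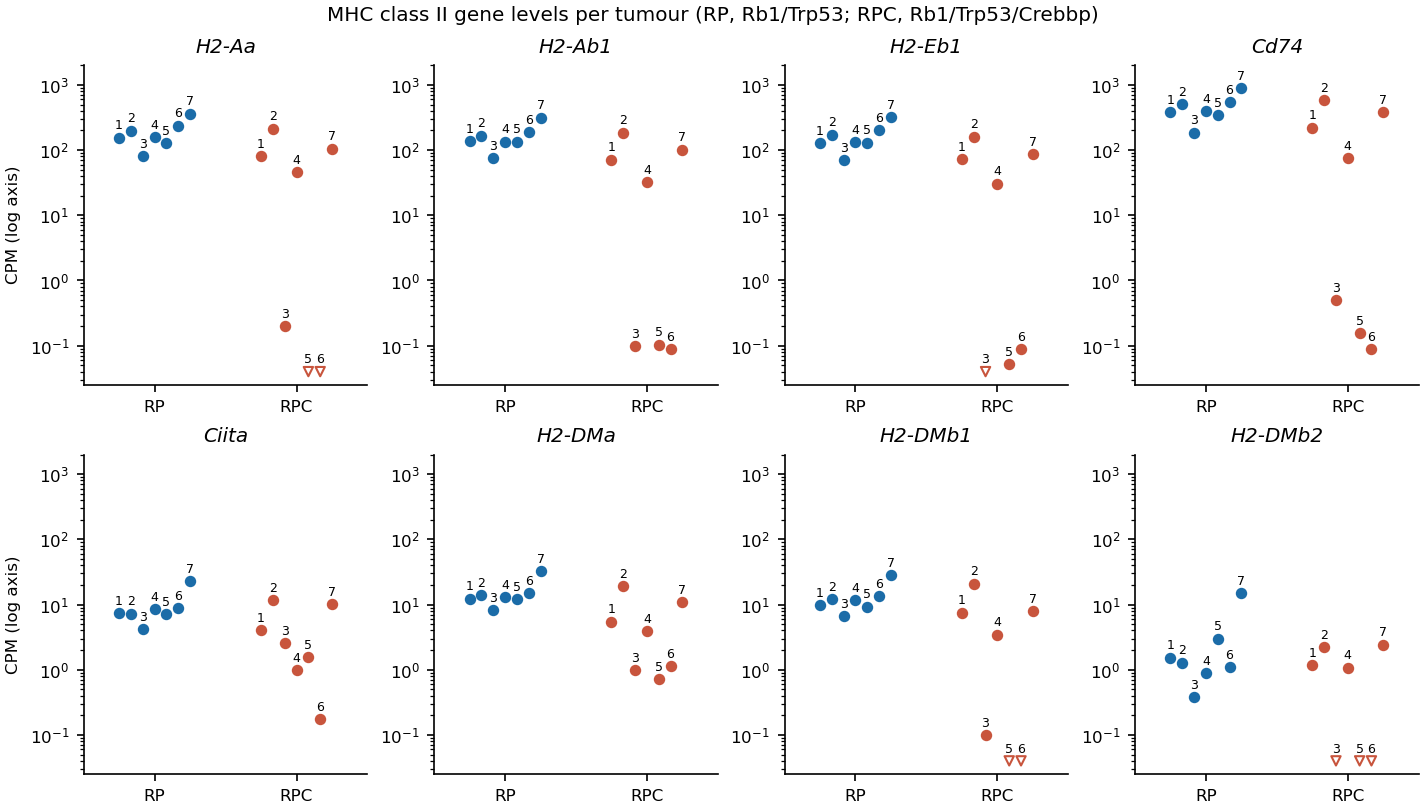
Level of each MHC class II gene in CPM (log axis) in each tumour, with the tumour number above each point; open triangles mark a count of 0, drawn at the foot of the axis. RPC tumours 3, 5 and 6 lie far under the other tumours for the presenting chains, Cd74 and H2-DMb1, while H2-DMa keeps counts there. Ciita had 26 and 30 counts in RPC tumours 3 and 5 but 2 in RPC tumour 6.

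H2-DMa in RPC tumours 3, 5 and 6, and Ciita in RPC tumours 3 and 5, did not vanish in step with the chains. Ciita, the master coactivator, was at 4.20 CPM in the lowest RP tumour, 7.30 at the median and 23.0 in the highest. In RPC tumours 1, 2, 4 and 7 it was at 4.03, 11.6, 0.987 and 10.2 CPM. RPC tumours 3 and 5 still had 26 and 30 counts of Ciita, 2.58 CPM (95% interval 1.69 to 3.79) and 1.55 CPM (1.05 to 2.21), and RPC tumour 6 had 2 counts (0.176 CPM). RPC tumour 4, whose H2-Aa level was 45.6 CPM, had 12 counts of Ciita (95% interval 0.510 to 1.72 CPM), an interval that overlaps those of tumours 3 and 5. H2-DMa, the alpha chain of H2-DM, ranged from 8.26 to 32.4 CPM in RP tumours (median 12.8) and from 3.95 to 18.9 CPM in RPC tumours 1, 2, 4 and 7. It kept 10, 14 and 13 counts in RPC tumours 3, 5 and 6, or 0.994, 0.723 and 1.14 CPM, where H2-DMb1 had 1, 0 and 0 counts.

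The H2-DM beta chains come from a pair of neighbouring copies that share sequence. Of all 50-base windows of the longest H2-DMb2 transcript, 25.2% also occur in that of H2-DMb1, so reads of the pair may have been left uncounted or split, and their levels are uncertain. H2-DMb1 ranged from 6.68 to 28.0 CPM in RP tumours (median 11.7) and was at 7.53, 20.8, 3.45 and 7.97 CPM in RPC tumours 1, 2, 4 and 7. H2-DMb2 was low, from 0.375 to 2.98 CPM in RP tumours 1 to 6 and at 15.1 CPM in RP tumour 7. It was between 1.07 and 2.43 CPM in RPC tumours 1, 2, 4 and 7, and at 0 counts in RPC tumours 3, 5 and 6.

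The comparison the design implies is whether class II genes differ with deletion of Crebbp. Fitted log2 fold changes of RPC against RP were negative for 8 of 8 members, from -1.75 for H2-DMb2 to -1.09 for Ciita, with a median of -1.47 against 0.00215 over all 14804 tested genes. The value of H2-DMb2 rests on RP tumour 7: without that library it was -0.47 (SE 0.96, edgeR adjusted p = 0.821). Ciita was at -0.70 without RP tumour 7, and H2-DMb1 at -2.0 without RPC tumour 2. The threshold was an adjusted p under 0.05 in the quasi-likelihood test of edgeR, and 0 of the 8 passed it, where 2.21% of all tested genes did. At an unadjusted p under 0.05 the edgeR count was also 0, where 21.3% of all genes passed. DESeq2 and limma-voom likewise called 0 members after adjustment. Of all genes, DESeq2 called 736 higher and 859 lower among 20051, and limma-voom 211 higher and 292 lower among 14804. At an unadjusted p under 0.05, however, DESeq2 had 1 of 8 members (20.6% of all genes) and limma-voom 7 of 8 (27.5% of all genes). The nearest to the threshold was H2-DMa (-1.35, SE 0.64, edgeR unadjusted p = 0.051, adjusted p = 0.236). For H2-Aa the log2 fold change came to -1.57 (SE 1.14, edgeR adjusted p = 0.444), with H2-Ab1 -1.57 (SE 1.10, 0.425), H2-Eb1 -1.72 (SE 1.12, 0.390) and Cd74 -1.37 (SE 1.19, 0.527). The values for H2-DMb1 and H2-DMb2 were -1.19 (SE 1.02, adjusted p = 0.518) and -1.75 (SE 1.06, 0.359), and that for Ciita had an adjusted p of 0.363. The ranges of the genotypes overlapped for all 8 members, and 0.561% of all tested genes had every RPC value below every RP value.

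The size of these values rests on RPC tumours 3, 5 and 6. Without them, the median over the 8 members was -0.71, and log2 fold changes were -0.76 for H2-Aa (SE 0.42, adjusted p = 0.509), -0.76 for H2-Ab1 (SE 0.42, 0.513) and -0.92 for H2-Eb1 (SE 0.42, 0.423). Cd74 was at -0.56 (SE 0.47, 0.700), Ciita at -0.51 (SE 0.59, 0.811) and H2-DMa at -0.65 (SE 0.45, 0.619), with H2-DMb1 at -0.39 and H2-DMb2 at -0.95. Again 0 of 8 members passed, where 0.0716% of 15358 genes did. limma-voom, which averages logarithms rather than counts, gave -5.26 for H2-Aa over all libraries (adjusted p = 0.0660). Since these are whole tumour samples, fewer class II-bearing cells and less class II RNA per cell cannot be told apart.

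**Figure D2:**
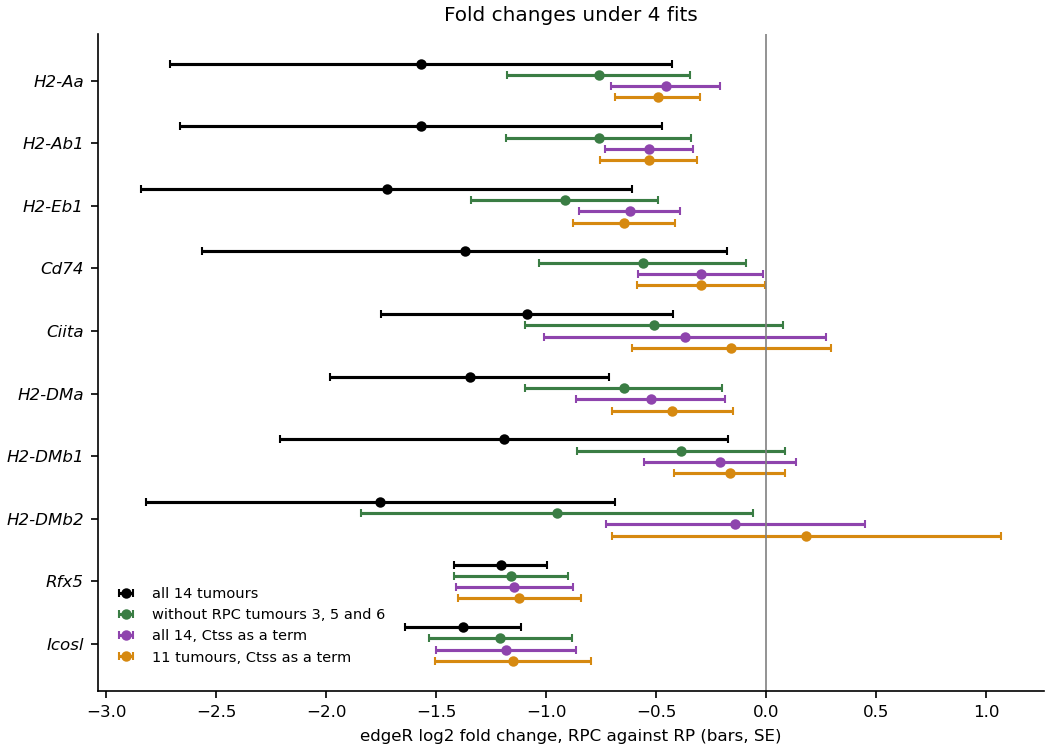
Log2 fold change of RPC against RP (points) with SE (bars) for the 8 members, Rfx5 and Icosl, under 4 fits of edgeR: all tumours, 11 tumours, and each with the log2 level of Ctss as a term. For H2-Aa the value moves from -1.57 over all tumours to -0.76 over 11 tumours, and for Rfx5 from -1.21 to -1.16.

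Macrophage content was read from Ctss, a lysosomal protease gene of macrophages and other antigen-presenting cells that is also part of the class II pathway. Ctss ranged from 74.2 to 245 CPM in RP tumours, with a median of 137. It was at 83.4, 281, 61.6 and 96.8 CPM in RPC tumours 1, 2, 4 and 7 and had 1, 0 and 1 counts in RPC tumours 3, 5 and 6. The 14 libraries thus fall into separate clusters, so relations were computed over the 11 tumours with at least 1 CPM of Ctss, on log2 CPM.

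Within these 11 tumours 7 of 8 members were correlated with Ctss, and H2-DMb2 was not shown to be. The share of all tested genes that would pass for Ctss was not computed, so the count does not set the members apart from other genes. For H2-DMb1 Pearson's r was 0.951 (permutation p = 1e-05, the smallest that 100000 resamples can give, adjusted over 48 relations 0.000480) and Spearman's rho 0.955 (adjusted permutation p = 0.00192). For H2-Aa r was 0.904 and rho 0.900 (adjusted permutation p = 0.000920 and 0.00206). Cd74 had r = 0.865 and rho = 0.927, H2-DMa r = 0.887 and rho = 0.927, and Ciita r = 0.805 and rho = 0.827 (adjusted permutation p from 0.000920 to 0.00834). H2-Ab1 and H2-Eb1 had r of 0.874 and 0.854 and rho of 0.864 and 0.818 (adjusted permutation p from 0.00106 to 0.00867). H2-DMb2 had r = 0.517 and rho = 0.318 (adjusted permutation p = 0.105 and 0.357). Without RPC tumours 2 and 4, whose Ctss level was farthest from the median, r was 0.820 to 0.954 for the 7 members other than H2-DMb2 and 0.593 for H2-DMb2.

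The relation to Ctss was also computed within the RP tumours alone, where r was 0.899 to 0.939 for the 7 members other than H2-DMb2 (exact permutation test, n = 7, adjusted p from 0.0190 to 0.0317). No Spearman relation passed there after adjustment over 48 relations (for Ctss, lowest adjusted exact p = 0.108, for Ciita). With 4 RPC tumours in the set, RPC alone is too small for a correlation. The labels name no batch or date within which the relation could be computed.

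**Figure D3:**
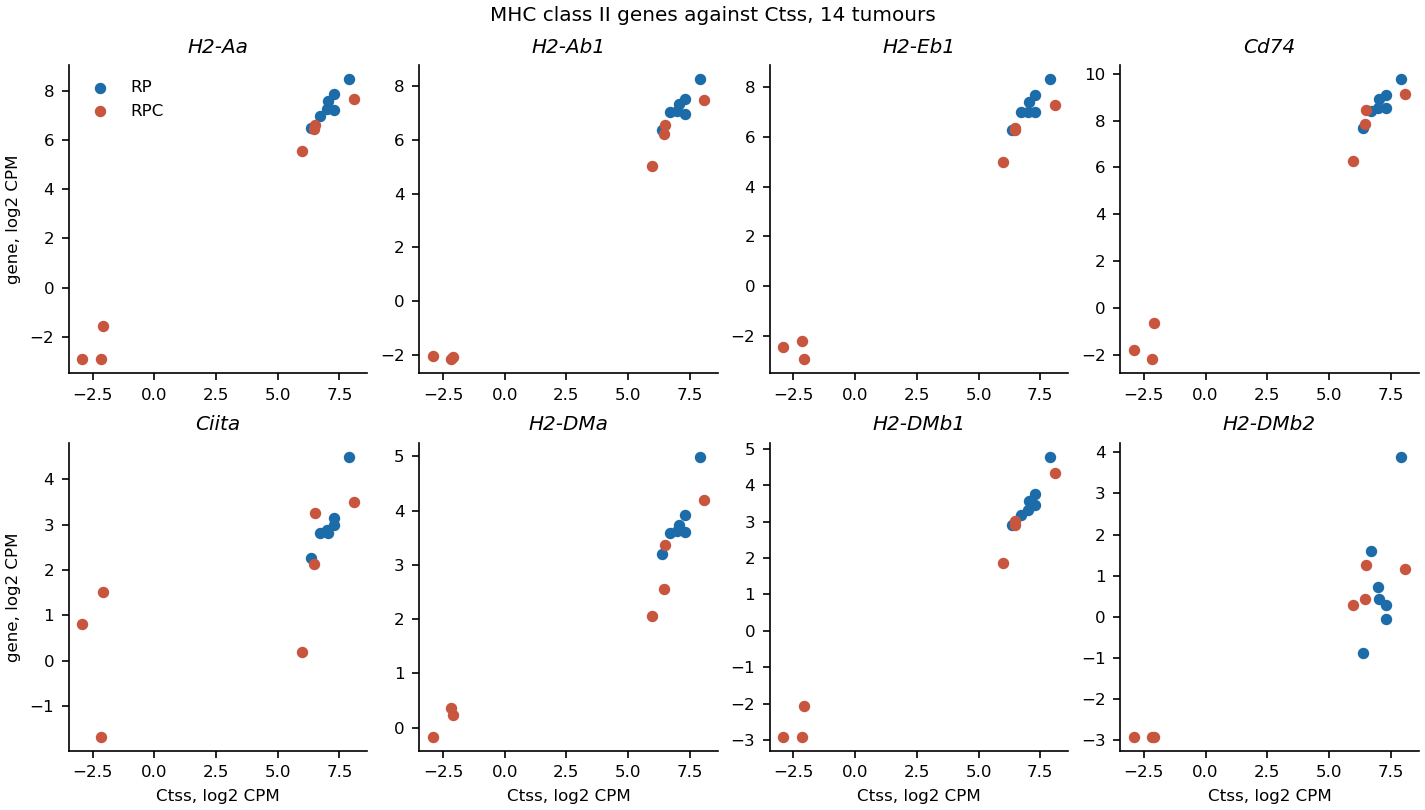
Log2 CPM of each member against log2 CPM of Ctss in 14 tumours, coloured by genotype. RPC tumours 3, 5 and 6 form a separate cluster at low Ctss; among the other 11 tumours r was 0.951 for H2-DMb1 and 0.517 for H2-DMb2.

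Relations with other cell type measures varied in size: the median r over the 8 members was 0.870 for Ctss, 0.699 for macrophage, 0.866 for dendritic cell, 0.603 for B cell, 0.793 for alveolar and 0.893 for interferon gamma genes. Each measure other than Ctss was the mean log2 CPM of the tested genes of a list, over the same 11 tumours. The share of all tested genes that would pass was not computed for any of these measures. Counts of members passing therefore do not set the members apart from other genes. With 14 macrophage genes other than Ctss, r ranged from 0.562 for H2-DMb2 to 0.853 for H2-DMb1, and 6 of 8 members passed by r and by rho. Without RP tumour 7 and RPC tumour 2, the farthest from the median of that measure, r was between -0.247 for H2-DMb2 and 0.629 for H2-Aa, lower for each of the 8, so much of this relation rests on those tumours. With 5 dendritic cell genes the highest r was 0.903, for H2-Eb1, and 7 of 8 members passed by r and 6 by rho. Here r was 0.219 to 0.749 over the members without RPC tumour 4 and RP tumour 7. With 8 alveolar type 2 cell genes the highest r was 0.884, for Ciita, with 7 of 8 passing by r but 3 by rho, and r was 0.272 to 0.722 without RPC tumour 4 and RP tumour 3. With 11 genes of the interferon gamma pathway r was 0.648 to 0.914, with 8 of 8 passing by r and 7 by rho, and without RPC tumour 4 and RP tumour 7 it was 0.352 to 0.903. Within RP tumours, members passing by r were 7 for the macrophage, 1 for the dendritic cell, 1 for the alveolar and 7 for the interferon gamma genes, and 0 by rho for each. Macrophages express some of the dendritic and interferon genes too, such as Itgax and Irf8, and the measures share the same libraries.

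H2-DMb2 passed for B cell genes. Its r with the mean of 4 B cell genes was 0.908 (adjusted permutation p = 0.00218) and rho 0.764 (adjusted p = 0.0142), and within RP tumours r was 0.975 (exact permutation test, n = 7, adjusted p = 0.0190). Without RP tumours 7 and 5, the farthest from the median, r was 0.567. Of the other members, only H2-DMb1 passed for this measure by r (0.655, adjusted permutation p = 0.0482), and its r was 0.468 without the same tumours. By rho H2-DMb1 did not pass (0.518, adjusted permutation p = 0.137). The summed level of the 8 listed B cell genes was 233 CPM in RP tumour 7, 35.2 in RP tumour 5 and at most 22.1 CPM in the other libraries. Ms4a1, which encodes CD20, was at 55.5 CPM in RP tumour 7 and 6.34 CPM in RP tumour 5. H2-Ob and H2-Oa, the chains of H2-O, a regulator of H2-DM known from B cells, were at 29.8 and 6.13 CPM in RP tumour 7, and at most 6.79 and 1.34 CPM elsewhere.

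Set per length, H2-DMb2 was at 0.509 of the level of H2-DMb1 in RP tumour 7 and at 0.305 in RP tumour 5. In the other 5 RP tumours the ratio lay between 0.0532 and 0.147. RPC tumours 4 and 7 were at 0.293 and 0.289 with B cell sums of 6.41 and 7.58 CPM. Their ratios rest on 13 and 25 counts of H2-DMb2 against 42 and 82 of H2-DMb1, and are uncertain. Whether B cells account for the ratio was not tested.

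**Figure D4:**
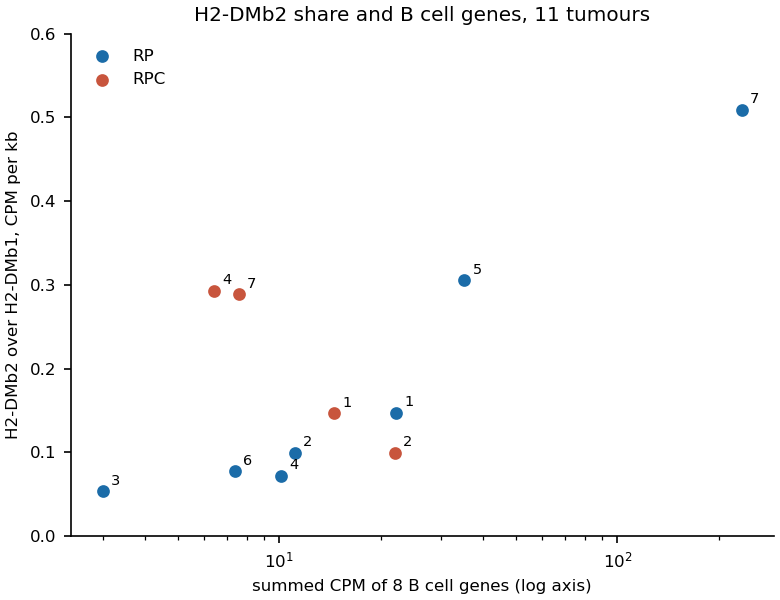
Ratio of H2-DMb2 to H2-DMb1 (CPM per kb of transcript) against the summed CPM of 8 B cell genes (log axis) in the 11 tumours with at least 10 counts of H2-DMb1, numbered by tumour. RP tumour 7 is highest on both axes, while RPC tumours 4 and 7 have ratios of 0.293 and 0.289 at low B cell sums.

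The chains stood in similar proportions to each other in the 11 tumours, on ratios chosen after the values were seen. Per length, H2-Aa stood at 1.22 ± 0.102 of H2-Ab1 in RP (SD, n = 7) and 1.28 ± 0.179 in RPC tumours (SD, n = 4). H2-Eb1 stood at 0.721 ± 0.0409 and 0.670 ± 0.0543 of H2-Ab1, and Cd74 at 2.39 ± 0.167 and 2.66 ± 0.487. These means differed by no more than the larger of the SDs. Ciita relative to H2-Ab1 varied most among these, at 0.0112 ± 0.00202 in RP and 0.0127 ± 0.00581 in RPC tumours, from 0.00622 in RPC tumour 4 to 0.0203 in RPC tumour 7. H2-DMb1 relative to H2-DMa was between 1.09 and 1.30 in RP tumours and at 1.97, 1.57, 1.25 and 1.04 in RPC tumours 1, 2, 4 and 7.

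Set against Ctss, the presenting chains were lower in RPC tumours by amounts that did not pass after adjustment. On the log2 scale the level relative to Ctss was 0.32 ± 0.25 for H2-Aa in RP (SD, n = 7) and -0.19 ± 0.27 in RPC tumours (SD, n = 4), a difference of -0.51 (exact two-sided permutation test, p = 0.0212, adjusted over 8 members 0.0566). H2-Ab1 differed by -0.57 (exact p = 0.0212, adjusted 0.0566) and H2-Eb1 by -0.68 (exact p = 0.0152, adjusted 0.0566), each with 2 of 4 RPC tumours under the lowest RP tumour. Differences were -0.44 for Cd74, -0.46 for Ciita, -0.43 for H2-DMa and -0.20 for H2-DMb1 (exact tests, adjusted p from 0.139 to 0.353), and 0.26 for H2-DMb2 (adjusted exact p = 0.718). The smallest p that 7 against 4 allows is 0.00303. Without RP tumour 4 the 3 presenting chains passed (adjusted exact p = 0.0254 each), and without RPC tumour 7 all members but H2-DMb1 and H2-DMb2 did (adjusted exact p from 0.0267 to 0.0333).

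With Ctss as a term in the edgeR fit over all 14 libraries, log2 fold changes were -0.46 for H2-Aa, -0.53 for H2-Ab1 and -0.62 for H2-Eb1 (unadjusted p = 0.0833, 0.0185 and 0.0172, adjusted p = 0.568, 0.390 and 0.377). Cd74 was at -0.30 and H2-DMb1 at -0.21 there. In that fit 0 of 8 members passed after adjustment (0.027% of all genes did) and 2 had an unadjusted p under 0.05 (9.96% of all genes).

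**Figure D5:**
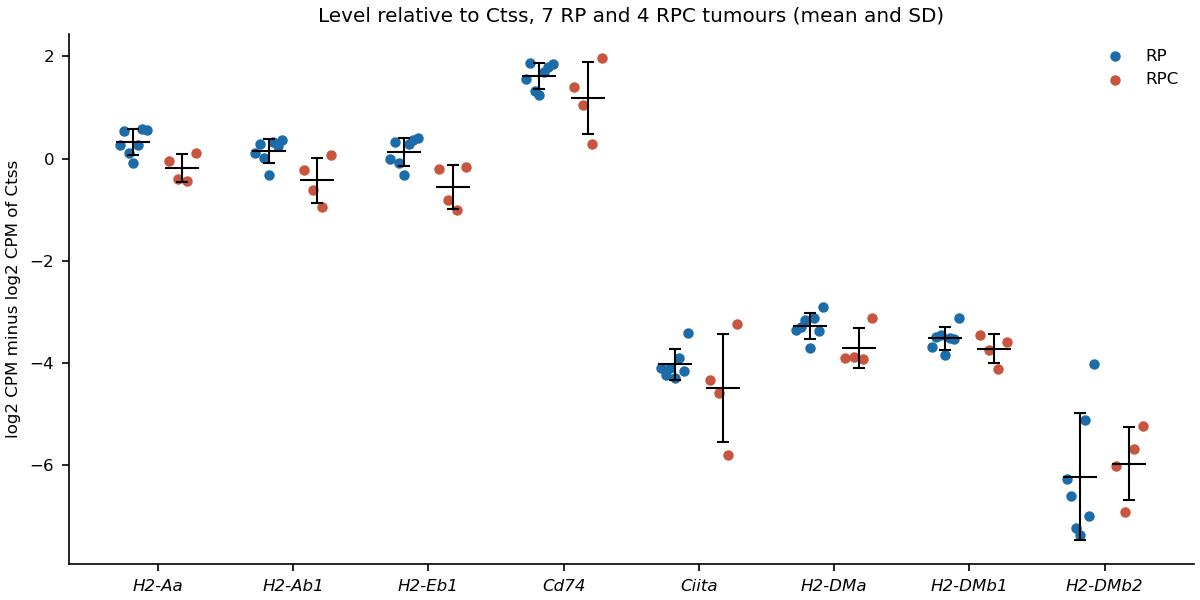
Log2 CPM of each member minus log2 CPM of Ctss in 7 RP and 4 RPC tumours (points), with the mean and SD (black). H2-Aa averages 0.32 in RP and -0.19 in RPC tumours, and the points of the genotypes overlap for every member.

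Of 10 listed genes of proteins that act with Ciita at class II promoters, 8 did not pass. Rfx5 was called lower and Nfyc higher in RPC tumours, where 2.21% of all tested genes were called in either direction. Rfx5, the DNA-binding subunit of the RFX complex, ranged from 58.1 to 145 CPM in RP tumours (median 89.7) and was at 37.2, 42.8, 48.3, 28.9, 35.2, 29.7 and 63.9 CPM in RPC tumours 1 to 7. RPC tumour 7 was the only RPC tumour above the lowest RP tumour. The log2 fold change of Rfx5 was -1.21 (SE 0.21, edgeR adjusted p = 0.0163), and it passed in each of the 14 fits without 1 library (highest adjusted p = 0.0414). The call was lost without RPC tumours 3, 5 and 6 (-1.16, SE 0.26, adjusted p = 0.129) and with Ctss as a term (-1.15, SE 0.27, adjusted p = 0.160), at values of like size. In RPC tumours 3, 5 and 6, where the presenting chains had at most 2 counts each, Rfx5 was at 48.3, 35.2 and 29.7 CPM.

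Nfyc, a subunit of NF-Y, ranged from 45.0 to 79.1 CPM in RP tumours and reached 1151, 759, 537 and 147 CPM in RPC tumours 1, 2, 6 and 5, with 63.7 to 81.6 CPM in RPC tumours 3, 4 and 7, within or just above the RP range (log2 fold change 2.78, SE 0.64, adjusted p = 0.0410). Its call held without RP tumour 3 or RPC tumour 4, 5 or 7 but was lost without any other single library (edgeR adjusted p up to 0.0947), without RPC tumours 3, 5 and 6 (0.0910) and with limma-voom (0.0865). Rfxank had a log2 fold change of 0.52 (adjusted p = 0.174), Creb1 0.36 (0.223), Rfxap 0.21 (0.506) and Ep300, the paralog of Crebbp, -0.10 (0.776). The median over the 10 genes was 0.13. Creb1 passed without RP tumour 3 (adjusted p = 0.0488).

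Other genes of the pathway had negative fold changes without calls, apart from Icosl. Of 6 tested class II modifiers and processing enzymes, 6 were negative and 0 passed (median -0.68, or -0.19 without RPC tumours 3, 5 and 6). By edgeR 1 had an unadjusted p under 0.05, where 21.3% of all genes did, and DESeq2 and limma-voom called 0. H2-Ob was at -2.67 (edgeR adjusted p = 0.227), which was -1.08 without RP tumour 7 and -1.86 without RPC tumours 3, 5 and 6, and Ifi30, a lysosomal thiol reductase, at -0.40 (0.518), which turned to 0.0061 without RPC tumours 3, 5 and 6. Some of the enzymes stayed present in RPC tumours 3, 5 and 6, with Ifi30 at 18.3, 12.2 and 27.7 CPM and Ctsl, which encodes cathepsin L, at 183, 117 and 78.5 CPM. Ctss, of the same list, had 1, 0 and 1 counts there. Of 4 tested costimulatory genes, 4 were negative (median -1.35, or -0.73 over 5 tested without RPC tumours 3, 5 and 6) and Icosl fell, from a range of 15.01 to 60.1 CPM in RP to 9.54 to 21.9 CPM in RPC tumours. Icosl encodes the ligand of the T cell receptor ICOS. Its log2 fold change was -1.38 (SE 0.26, edgeR adjusted p = 0.0244), and the call was lost without RP tumour 6 (0.0512), RPC tumour 3 (0.0513) or all of RPC tumours 3, 5 and 6 (-1.21, SE 0.33, 0.174). It was also lost with Ctss (-1.18, edgeR adjusted p = 0.222) or macrophage genes (-1.21, 0.202) as a term. Cd86, a ligand of CD28, was at 2.10 to 7.07 CPM in RP and at 0 counts in RPC tumours 3, 5 and 6 (-1.22, edgeR adjusted p = 0.471). Without those 3 libraries Cd86 was at -0.42 (edgeR adjusted p = 0.771).

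Interferon gamma pathway genes were negative in 10 of 11 with 0 calls (median -0.90), and 4 were lower at an unadjusted p under 0.05 by edgeR, where 11.1% of all genes were. DESeq2 and limma-voom also called 0, with 5 and 9 at an unadjusted p under 0.05, where 20.6% and 27.5% of all genes were. Irf1, a transcription factor induced by interferon gamma, averaged 89.1 ± 34.0 CPM in RP tumours (SD, n = 7), against 43.0 ± 26.2 CPM with Crebbp deleted (SD, n = 7; edgeR log2 fold change -1.03, adjusted p = 0.136). The chemokine gene Cxcl9 was at -2.25 (edgeR adjusted p = 0.311), and at -0.59 without RP tumour 7 (0.801), with 50.9 CPM in RP tumour 7 and at most 7.20 CPM elsewhere. Without RPC tumours 3, 5 and 6 the median over the list was -0.40 and Irf1 was at -0.59 (edgeR adjusted p = 0.526), and without RP tumour 7 the median was -0.59.

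Marker lists of other cell types moved with the same tumours, and their part in the class II values was not tested beyond the relations above. The median log2 fold change was -0.94 over 14 macrophage genes, -0.77 over 5 dendritic cell genes, -2.84 over 4 B cell genes and -0.63 over 3 T and NK cell genes. It was 0.19 over 8 alveolar type 2 cell genes, -0.63 over 7 endothelial genes, -1.10 over 7 fibroblast genes and -0.23 over 10 neuroendocrine genes. Without RPC tumours 3, 5 and 6 the medians were -0.13 for macrophage, -0.34 for fibroblast, -0.52 for neuroendocrine, 0.99 for alveolar and 0.15 for endothelial genes, the last opposite in sign to the value over all libraries. In the same fit, which tested 7 genes of each, they were -0.20 for dendritic cell, -2.03 for B cell and -0.38 for T and NK cell genes. Without RP tumour 7 the B cell median was -1.18, with 0 of 4 genes at an unadjusted p under 0.05 by edgeR. By edgeR 0 genes of the 7 lists other than the neuroendocrine one passed the threshold over all libraries. At an unadjusted p under 0.05 by edgeR there were 3 of 4 B cell genes and 1 of 3 T and NK cell genes, where 21.3% of all genes passed. For the same 7 lists DESeq2 called 2 of 8 B cell genes lower (859 of all 20051 genes) and limma-voom called 0 genes. For the alveolar genes the median was -3.83 with limma-voom, opposite in sign to edgeR. Summed dendritic cell genes were 38.1 to 66.5 CPM in RP tumours, 25.8 to 72.7 CPM in RPC tumours 1, 2, 4 and 7, and 15.6, 27.4 and 11.4 CPM in RPC tumours 3, 5 and 6. Summed T and NK cell genes were 6.23 to 52.9 CPM in RP tumours and 0.895, 0.465 and 0.704 CPM in RPC tumours 3, 5 and 6. Csf1r, a defining macrophage receptor, had 0 counts in RPC tumours 5 and 6 and 0.199 CPM in RPC tumour 3, against at least 22.7 CPM elsewhere.

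The 10 genes whose levels were most like the mean of the 8 members over the 11 tumours, among 13396 genes ranked by Pearson's r, were Ccnd2 (0.949), Capg (0.939), Rasal3 (0.936), Lcp1 (0.935), Galnt4 (0.926), Ccl5 (0.923), Fam43a (0.923), Sh2d2a (0.922), Sp110 (0.916) and Il10ra (0.912). Ccnd2 encodes cyclin D2, Capg and Lcp1 actin-binding proteins, Ccl5 a chemokine and Il10ra a receptor chain for interleukin 10. Ctss ranked at 26 with r = 0.889. These values are a description of 11 libraries that share the same tumours, and 0 of the 10 genes passed the test between genotypes over all libraries (edgeR adjusted p from 0.150 to 0.496).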

How the data were processed

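Polyadenylated RNA of 14 tumours was sequenced, per the labels' protocols; whether counting used strand is not given in these sources. The authors deposited raw read counts per gene symbol, 1 file per tumour, made with bcl2fastq 1.8.2, TopHat2 2.0.12 and HTSeq 0.6.1 on mm9, per the submitters' processing notes. Reads with several alignments have a line of their own in the files, so near-identical copies such as H2-DMb1 and H2-DMb2 may be undercounted. Rows that name no gene were kept out: reads outside genes were 15.1% to 20.5% of a file's counts, reads with several alignments 8.44% to 11.2% and ambiguous reads 0.883% to 1.09%.

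Counts were tested in R 4.3.3 with edgeR 4.0.16 (filterByExpr with minimum count 10 and total 15, TMM factors 0.906 to 1.07, quasi-likelihood F test, no covariate, 7 RPC against 7 RP libraries). P-values were adjusted by Benjamini-Hochberg over 14804 genes and called at 0.05. All 8 members passed the filter. An SE is the fold change divided by the root of F. Printed CPM values use a library's gene counts without a scaling factor, and log2 CPM uses TMM factors and a prior count of 2. In simulated counts of 14617 genes (7 against 7), the test called 95 genes, 1 of them false. The test found 27.6% of the 98 with a 2-fold and 72.0% of the 93 with a 4-fold change. The share that would be found for the 8 members, whose SE was 0.64 (H2-DMa) to 1.19 (Cd74) over all libraries, was not tested. Correlations used 100000 permutations, or all pairings for fewer than 10 values, two-sided, adjusted over 48 relations (8 members, 6 measures) per set of libraries. Transcript lengths are from GENCODE M21 and promoters from RefSeq, both on GRCm38, matched by symbol, and promoters of 5 of 8 members were used. The promoter set held none for H2-Ab1 and Ciita, and Cd74 was left out of the member windows. No Cd74 window was among the 8 with an X box core followed by a Y box core. No 2 libraries of a genotype were a repeat (chi-square per degree of freedom at least 51.5 over 42 pairs).

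Some items are not reported here. Members, lists and alternatives were chosen with earlier results of these data known. Named genes are the 8 members, up to 4 genes of each list by smallest p and highest CPM, Crebbp, Ctss and the 10 genes most like the members. H2-Ea-ps, H2-Oa, Itgax, Irf8, Rfxap, Ep300 and the ratios between members were chosen after their values were seen. Alternatives were 2 other scalings, 2 filters, DESeq2 1.42.0, limma-voom (limma 3.58.1), the tumour number as a block, Ctss or macrophage genes as a term, another prior count, macrophage genes in place of Ctss, and leaving out libraries.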

Additional observations from a re-analysis of the deposited data

Results flagged for a closer look

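In RP tumour 7, Ciita was at a log2 CPM of 4.50 against 3.14 in the next highest RP tumour, and H2-DMa at 4.99 against 3.92. The gap to the nearest tumour was 0.604 and 0.601 of the whole range of the 7 RP tumours, above Dixon's critical value of 0.568. Of 32 groups of values looked at, 2 gave such a gap, and chance alone gives about 1 in 20. The same tumour had the highest levels of the other 6 members among RP tumours, and of B cell genes, at 233 CPM in sum.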

How the results depend on the processing

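The count of members called was 0 in all 25 alternative fits, and the count of members correlated with Ctss was 7 of 8 in all 14 alternatives. Of 200 alternative fold changes of members, 1 changed sign: H2-DMb2 was at 0.18 without RPC tumours 3, 5 and 6 and with Ctss as a term. Without 1 library at a time, fold changes ranged from -2.26 to -1.33 for H2-Aa and from -1.52 to -0.70 for Ciita. The count of all genes called, 327, was 74 with the tumour number as a replicate block, 4 with Ctss or with macrophage genes as a term, 11 without RPC tumours 3, 5 and 6, 5 without them and with Ctss as a term, 1595 with DESeq2 and 503 with limma-voom, and 51 to 898 without 1 library; the cause was not tested. With the block, members were at -1.62 (Ciita) to -3.67 (Cd74) with 0 calls, and Rfx5, Nfyc and Icosl lost their calls (edgeR adjusted p = 0.0634, 0.157 and 0.0582). Same-numbered deviations correlated above 0.1 in 3 of 7 pairs (r = 0.289, 0.219 and 0.322 for numbers 3, 5 and 7). Of 7 tumours, 2 correlated best with their own number. This check does not decide whether some numbers share a pairing or a batch. The count of members lower relative to Ctss, 0, ranged from 0 to 6 without 1 library. Among other genes, Ifi30 was at 0.0896 with Ctss as a term, 0.061 with macrophage genes as a term, 0.0061 without RPC tumours 3, 5 and 6 and 0.16 with both, and Cxcl9 at 0.59 with both. Depth limits H2-DMb2, at 5 to 40 counts in 10 of the 11 tumours with Ctss.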

Other observations

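RPC tumour 5 had a summed level of 14 macrophage genes of 9.40 CPM but high levels of Pdgfra and Kdr. In that tumour the 7 listed fibroblast genes summed to 120 CPM and the 7 endothelial genes to 81.0 CPM. Pdgfra and Kdr made up most of these sums, and 4 of the 7 endothelial genes had 0 counts. Pdgfra, a growth factor receptor of fibroblasts, was at 111 CPM there and at most 60.7 CPM in the other 13 tumours, and Kdr, a receptor of endothelial cells, at 78.8 CPM against at most 34.3 CPM. Sftpc, the surfactant gene of alveolar type 2 cells, ranged from 1.64 CPM in RPC tumour 4 to 1634 CPM in RPC tumour 2 among the 11 tumours with Ctss, and those tumours were also the lowest and the highest of the RPC group for H2-Aa apart from RPC tumours 3, 5 and 6. Sftpc was at 9.84, 18.3 and 8.27 CPM in RPC tumours 3, 5 and 6.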
